A study of Mus musculus with 21 samples.

Results

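The genes described here are 10 markers of T cells and of their precursors in the thymus: *Cd3d*, *Cd3e*, *Cd3g*, *Cd4*, *Cd8a*, *Cd8b1*, *Lck*, *Themis*, *Rag1* and *Dntt*. They were selected by symbol from measured values of these same libraries, in which a single library can dominate a group mean, so their levels and fold changes are given as a description and carry no test. All 10 were found among the 56691 genes of the table, and 1 of them, *Cd3e*, reached the minimum level of a mean FPKM (fragments per kilobase of exon and 1000000 reads) of 0.5 that was set for the fit across 13990 genes.

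RNA was sequenced from hearts of 21 mice in 4 groups. Control mice (n = 5) received saline and carried no tumor, and DOX mice (n = 5) received doxorubicin and carried no tumor. Tb mice (n = 6) carried a subcutaneous tumor of 4T1 cells, a mouse mammary carcinoma line, and received saline. Tb-DOX mice (n = 5) carried the same tumor and received doxorubicin. Doxorubicin, an anthracycline that damages DNA and is toxic to the heart, was injected intraperitoneally at 5 mg/kg once a week, for 3 injections. Strain, sex and age are not given in the sources used here, and none of them names an engineered allele. The tumor cells were injected under the skin, so Tb and Tb-DOX hearts are those of a tumor host. Whether tumor cells reached these hearts was not tested. GEO's labels name 4T-1 as the source of every library, whereas *Myh6*, the heavy chain of cardiac myosin, had between 257927 and 485752 reads per library and *Epcam*, an epithelial marker, had between 0 and 13. The *Epcam* counts over 3 were all in tumor-bearing libraries: 13 in Tb replicate 5, 8 in Tb-DOX replicate 4 and 5 in Tb-DOX replicate 2.

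CD3 delta, CD3 epsilon and CD3 gamma are the invariant chains that pair around the T cell receptor and carry its signal into the cell, and mature T cells make all of them together. CD4 and CD8 are the coreceptors that mark helper and cytotoxic T cells, the kinase LCK is bound to them, and THEMIS tunes receptor signalling during selection in the thymus. RAG1 cuts DNA to assemble antigen receptor genes and the DNA polymerase terminal transferase, encoded by *Dntt*, adds bases at the joints. Both belong to immature lymphocytes, of the B as well as the T lineage. A normal heart holds few T cells and no thymocytes.

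The CD3 genes lie side by side on chromosome 9. In the coordinates deposited with the counts, whose build is GRCm39 in the submitters' processing notes, *Cd3g* spanned chr9:44880870-44891729 on the minus strand, *Cd3d* chr9:44893084-44898637 on the plus strand and *Cd3e* chr9:44910038-44920925 on the minus strand. The 250 bases before each RefSeq start site are shown because these neighbours, which a T cell uses together, went apart in the hearts. Letters run in the direction of the gene and come from the RefSeq table of build GRCm38.p6, in which the windows are chr9:45009612-45009861 for *Cd3e*, chr9:44981536-44981785 for *Cd3d* and chr9:44980432-44980681 for *Cd3g*. Capitals mark matches, on either strand, to short cores bound by families of factors that lymphocytes use.
Cd3e: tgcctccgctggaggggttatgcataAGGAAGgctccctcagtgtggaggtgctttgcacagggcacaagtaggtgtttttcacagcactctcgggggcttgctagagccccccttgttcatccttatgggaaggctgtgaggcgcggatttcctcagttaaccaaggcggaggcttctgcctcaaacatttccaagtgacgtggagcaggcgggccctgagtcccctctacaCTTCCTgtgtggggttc
Cd3d: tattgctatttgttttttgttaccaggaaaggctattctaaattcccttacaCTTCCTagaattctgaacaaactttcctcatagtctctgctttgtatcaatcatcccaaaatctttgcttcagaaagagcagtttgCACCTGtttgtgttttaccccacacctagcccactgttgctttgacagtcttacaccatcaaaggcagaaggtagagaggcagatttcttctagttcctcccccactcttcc
Cd3g: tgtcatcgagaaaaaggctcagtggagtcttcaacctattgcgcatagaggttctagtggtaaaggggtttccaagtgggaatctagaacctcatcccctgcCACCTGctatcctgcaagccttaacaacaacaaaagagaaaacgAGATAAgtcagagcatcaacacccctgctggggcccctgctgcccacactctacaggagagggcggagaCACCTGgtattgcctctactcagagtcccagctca

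The core of ETS factors was searched as AGGAAG. It stood at 2 places in the *Cd3e* window, at 1 in *Cd3d* and at none in *Cd3g*, and 29.5% of the 32851 windows of this length in the table held it. An E-box was searched as CAGGTG. It stood at 2 places in *Cd3g*, at 1 in *Cd3d* and at none in *Cd3e*, and 17.2% of windows held it. The core of GATA factors, AGATAA, stood in *Cd3g* and in 9.99% of windows. The core of RUNX factors, TGTGGT, stood in none of these windows and in 14.0% of all. None of the matches overlapped each other. A match is a run of letters and was not tested as a binding site. The table held promoters of 8 of the 10 genes, all but *Cd4* and *Cd8b1*.

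Reads assigned to the 10 genes were few. Library totals ran from 13521200 to 18601445 reads, and 3 counts, taken as the limit for a gene at 0, stood for 0.151 to 0.241 CPM (counts per 1000000 reads of the library, after TMM scaling). Intervals and limits of this kind cover counting error only. Together the 10 genes had between 18 and 48 reads in Control libraries and between 82 and 3874 in DOX libraries. They had between 50 and 783 in Tb libraries and between 50 and 205 in Tb-DOX libraries. In heart tissue, a lower level of a T cell gene can mean fewer T cells or less RNA per cell, and these cannot be told apart.

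**Figure D1:**
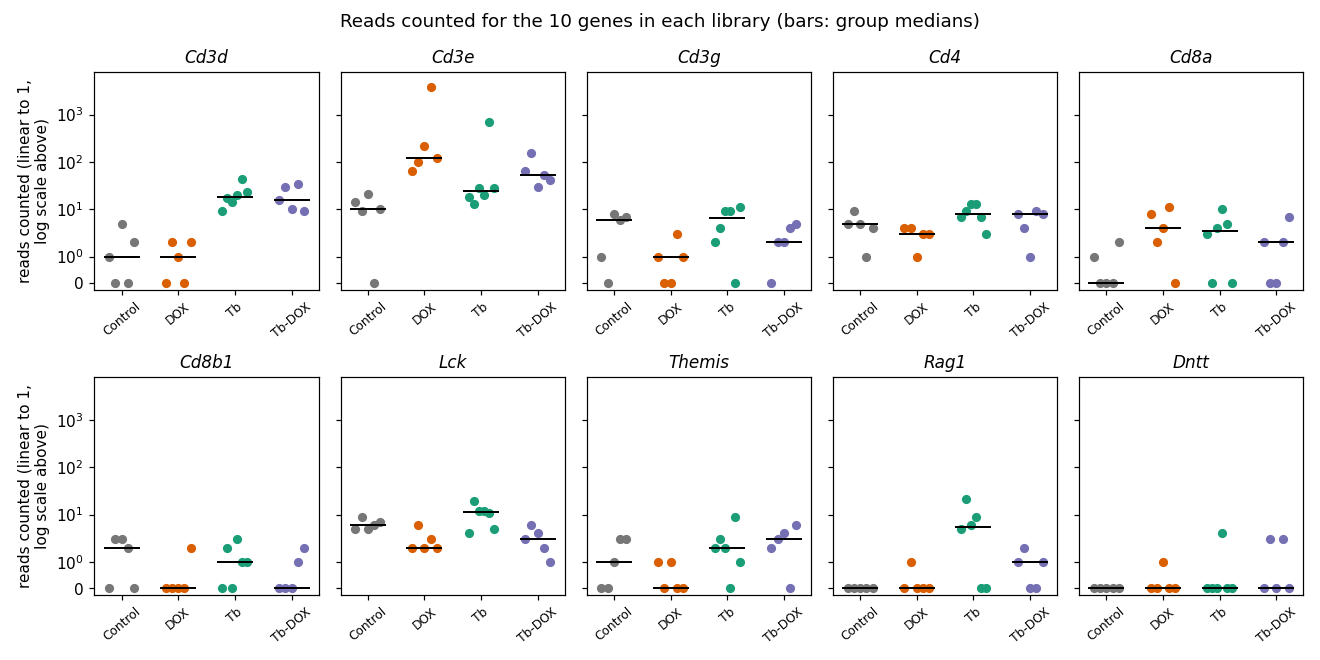
Reads counted for each of the 10 genes (y axis, linear to 1 and log above) in every library of the 4 groups (x axis), 1 point per library, with bars at group medians. *Cd3e* stands above the other 9 genes in every DOX library, reaching 3854 reads in DOX replicate 4, and *Cd3d* has at least 9 reads in every tumor-bearing library and at most 5 in every other.

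*Cd3e*, which encodes CD3 epsilon, was counted at 14, 9, 21, 0 and 10 reads in Control replicates 1 to 5. The DOX replicates had 66, 100, 213, 3854 and 120 reads. All 5 DOX libraries thus lay above all 5 Control libraries, and replicate 4 held 88.5% of the group's reads. In the Tb group the lowest library had 13 reads, the median was 24 and the highest, replicate 5, had 706. The Tb-DOX replicates had 63, 155, 29, 53 and 41 reads. Both tumor-bearing groups overlapped each other, and the 5 Tb-DOX libraries lay above the Control range of 0 to 21 reads. Ordered by median count, the groups ran Control, Tb, Tb-DOX and DOX, and each neighbouring pair in that order overlapped.

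In the DOX and Tb groups a single library carried most of the mean. In CPM the *Cd3e* level was 69.0 ± 134 (SD, n = 5) in DOX and 8.95 ± 4.03 (SD, n = 4) without replicate 4. Tb hearts had 8.14 ± 16.8 (SD, n = 6) with all libraries and 1.27 ± 0.373 (SD, n = 5) without replicate 5. Tb-DOX hearts had 4.08 ± 2.99 (SD, n = 5) and 2.77 ± 0.630 (SD, n = 4) without replicate 2, which held 45.5% of that group's reads. Control hearts had 0.675 ± 0.442 (SD, n = 5). The order of the means therefore put Tb above Tb-DOX with all libraries, and Tb-DOX above Tb once the highest library of each was left out.

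In the fit across 13990 genes (edgeR's quasi-likelihood test, called at an adjusted p under 0.05 and a log2 fold change of at least 1 in size), *Cd3e* had a fitted log2 fold change of 6.61 (SE 1.47) in DOX against Control, and 9.95% of all genes tested were called there. Since *Cd3e* was selected from this pattern, its being called is a description. Leaving out DOX replicate 4 brought it to 3.67. In Tb-DOX against Tb it was -0.99 (SE 1.11), with 1.11% of genes called and *Cd3e* not among them, and it turned to 1.69 without Tb replicate 5. For that comparison *Cd3e*, the 1 member fitted, had no unadjusted p under 0.05 in edgeR or in any limma fit. Over all 13990 genes, 2855 had one in edgeR.

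The doxorubicin effect in tumor-bearing mice minus that in non-tumor-bearing mice, the interaction, was -7.60 (SE 1.84) for *Cd3e* on the log2 scale, where 3.89% of genes were called and *Cd3e* was among them. It was -4.67 without DOX replicate 4 and -4.93 without Tb replicate 5, and *Cd3e* was called in neither of these fits. Tb against Control gave 3.53 (SE 1.40), not called, where 3.6% of genes were called, and it fell to 0.86 without Tb replicate 5. Without DOX replicate 4, which is in neither group, it was 3.55 and called. Tb-DOX against DOX gave -4.07 (SE 1.22), called, where 5.62% of genes were called. It was -1.12 and not called without DOX replicate 4, and *Cd3e* also lost that call without Tb-DOX replicate 1, 3, 4 or 5. With DOX replicate 4, Tb replicate 5 and Tb-DOX replicate 2 all left out, the log2 fold changes of *Cd3e* were 3.68 in DOX against Control, 0.87 in Tb against Control, 1.11 in Tb-DOX against Tb and -1.69 in Tb-DOX against DOX, and the interaction was -2.56 (SE 0.594). These libraries were left out after their high *Cd3e* counts had been seen, which lowers the spread as well, so no call is read from that fit. These comparisons share groups, and so do their values.

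**Figure D2:**
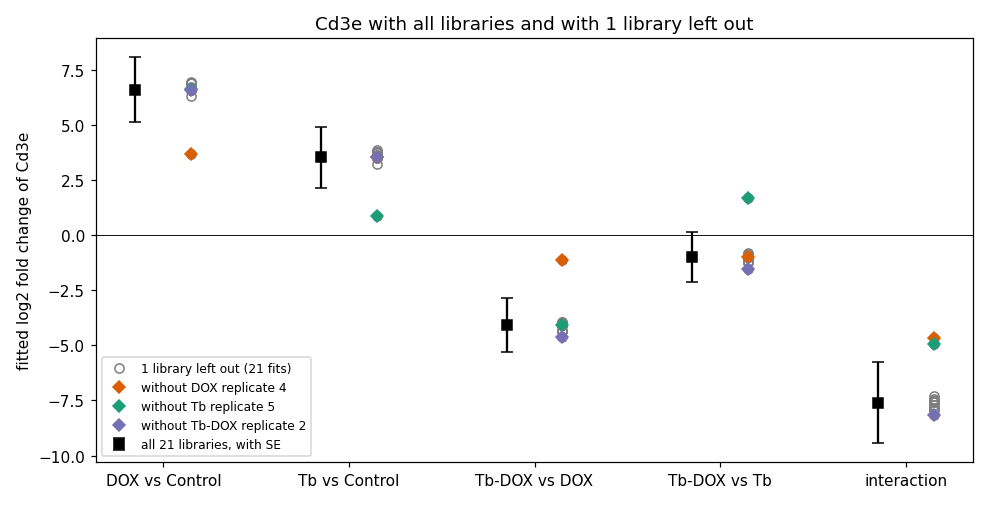
Fitted log2 fold change of *Cd3e* (y axis) in 4 comparisons and the interaction (x axis). Squares are fits to all 21 libraries with their SE, and circles are the 21 fits that each leave out 1 library, with those lacking DOX replicate 4, Tb replicate 5 or Tb-DOX replicate 2 in color. DOX against Control stays between 3.67 and 6.94, and Tb-DOX against Tb runs from -1.55 to 1.69.

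The high *Cd3e* reads came without the rest of the receptor. DOX replicate 4, with 3854 *Cd3e* reads, had 20 reads for the other 9 genes together, among them 0 for *Cd3d*, 3 for *Cd3g* and 3 for *Lck*. The same library had 6 reads for *Trac*, the constant part of the receptor's alpha chain, 2 for *Trbc1* and 1 for *Trbc2*, which encode its beta chain, and 2 for *Cd247*, the zeta chain. Tb replicate 5, with 706 *Cd3e* reads, had 77 for the other 9 genes, of which 44 were *Cd3d*, and 0 for *Cd3g*. It had 4 reads for *Trac*, 3 for *Trbc1* and 0 for *Trbc2*. Those receptor genes were at similar counts in libraries with little *Cd3e*: over all 21 libraries *Trac* ran from 0 to 11 reads, *Trbc1* from 0 to 20, *Trbc2* from 0 to 7 and *Cd247* from 1 to 17.

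Per length, *Cd3e* was at the level of other members in Control hearts, with a mean of 0.170 FPKM beside 0.148 for *Lck*, 0.088 for *Cd3g* and 0.080 for *Cd4*. In DOX hearts it ran from 0.980 to 66.7 FPKM with a median of 2.10, while the means were 0.070 for *Lck*, 0.020 for *Cd3g* and 0.050 for *Cd4*. The median share of the 10 genes' summed FPKM held by *Cd3e* was 24.2% in Control (range 0 to 45.8%) and 87.5% in DOX (range 79.0 to 99.4%). In Tb it was 26.0% (range 11.8 to 84.2%) and in Tb-DOX 46.5% (range 33.2 to 63.1%). Across the 21 libraries, Spearman's rho of *Cd3e* with each other member lay between -0.48 and 0.37 (log2 of FPKM plus 0.1), as a description over libraries that share groups and in which the other genes have few reads. Over all 45 pairs of members it ran from -0.48 to 0.59 with a median of 0.15. The mean profile of the 10 genes (each scaled) had a rho of 0.82 with the summed level of 15 genes of T cell receptor signalling over the 21 libraries, 0.52 (Pearson 0.35) within the tumor-bearing ones and 0.73 (0.48) within the others. The likeness was not particular to T cell genes. Over the 21 libraries it was 0.76 with cycling cell genes, 0.74 with general leukocyte genes, 0.65 with macrophage genes and -0.09 with thymocyte stage genes. Within the tumor-bearing libraries it was 0.74 with macrophage genes (Pearson 0.58) and with genes of lymph node stroma and follicles (0.63). The 10 genes are called here by their names.

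**Figure D3:**
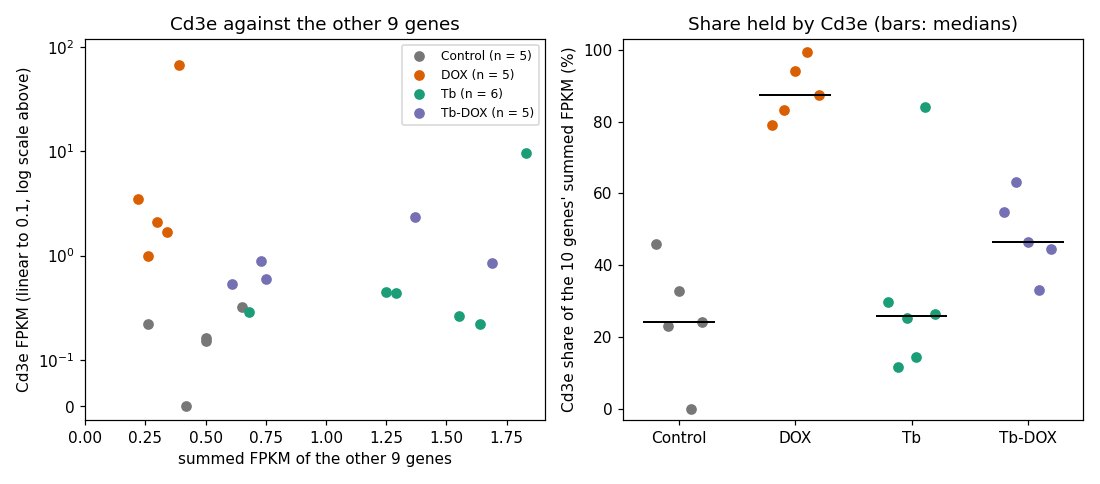
Left, FPKM of *Cd3e* (y axis, linear to 0.1 and log above) against the summed FPKM of the other 9 genes (x axis) for each library. Right, the share of the 10 genes' summed FPKM held by *Cd3e* (y axis, percent) by group, with bars at medians. All DOX libraries have a share of at least 79.0%, whereas their summed level of the other 9 genes lies at the low end.

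Of the genes around *Cd3e*, those that overlap it had reads in the same libraries. *Gm48719* (ENSMUSG00000111203), a predicted gene on the plus strand, opposite to *Cd3e*, lies wholly inside the *Cd3e* span over 3557 bases. It had 379 reads in DOX replicate 4, 67 in Tb replicate 5 and 24 in Tb-DOX replicate 2, between 1 and 19 in the other DOX libraries, and between 0 and 2 in Control. Among the 6 libraries with at least 100 *Cd3e* reads, its count ran from 2.00% to 15.5% of the *Cd3e* count, and was 9.83% in DOX replicate 4. *Gm48720*, on the same strand as *Cd3e* and inside its span, had 78 reads in DOX replicate 4 and at most 6 elsewhere. Whether reads were counted by strand is not given in the sources used here, so reads of *Cd3e* and of its overlapping genes cannot be told apart fully. With the reads of both added to *Cd3e*, its log2 fold change in DOX against Control was 6.66.

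The nearest genes on either side went in different ways. *Cd3d* had 0, 2, 1, 0 and 2 reads in the DOX replicates, and *Cd3g* had 1, 0, 0, 3 and 1. *Ube4a*, a ubiquitin ligase gene beyond *Cd3g*, ran from 642 to 1110 reads in DOX and from 734 to 1006 in Control. *Mpzl3*, an adhesion protein gene beyond *Cd3e*, ran from 54 to 71 in DOX and from 70 to 99 in Control. Neither was called in DOX against Control. *Mpzl2*, the gene next to *Cd3e* on that side, had from 6 to 20 reads in DOX and from 2 to 7 in Control. It was called higher in the fit with no minimum level, with a log2 fold change of 1.88. *Jaml*, beyond *Mpzl3*, had from 39 to 127 reads in DOX and from 26 to 124 in Control, and was called higher at 1.05. Both overlapped between the groups.

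**Figure D4:**
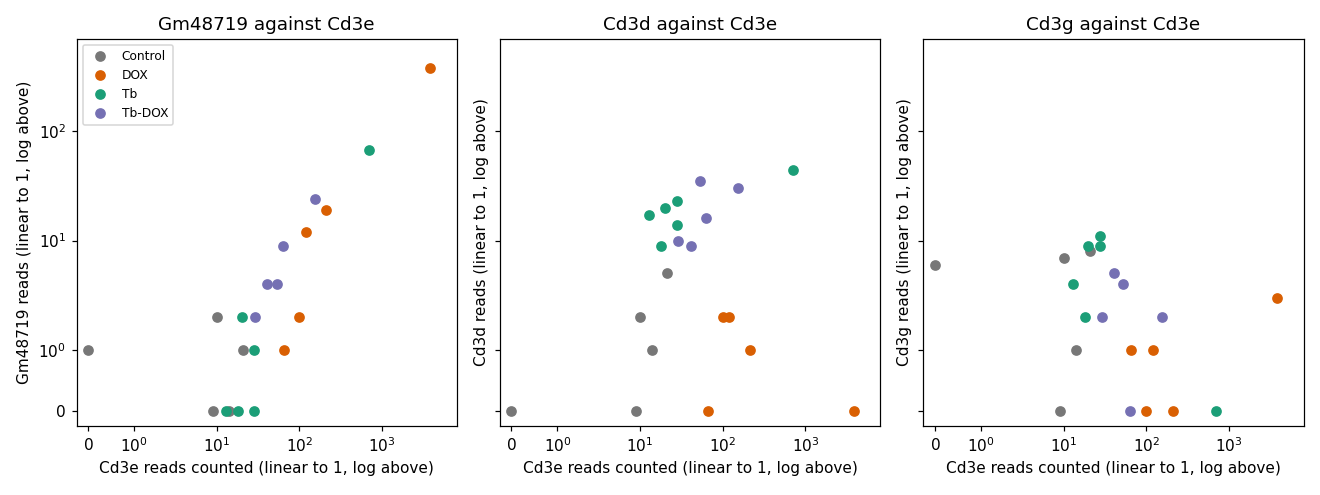
Reads of *Gm48719* (left), *Cd3d* (middle) and *Cd3g* (right) on the y axes against reads of *Cd3e* on the x axes, 1 point per library, all axes linear to 1 and log above. *Gm48719* has its highest counts, 379 and 67, where *Cd3e* has 3854 and 706 reads, while *Cd3d* and *Cd3g* have 0 and 3 reads in the library with 3854.

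*Cd3d*, which encodes CD3 delta, was counted mainly in tumor-bearing hearts, with and without doxorubicin. Control replicates had 1, 0, 5, 0 and 2 reads and DOX replicates 0, 2, 1, 0 and 2. Tb libraries had at least 9, a median of 18.5 and at most 44 reads, and Tb-DOX replicates had 16, 30, 10, 35 and 9. Every tumor-bearing library lay above every non-tumor-bearing one. The mean level was 1.26 ± 0.724 CPM (SD, n = 6) in Tb against 0.0959 ± 0.119 (SD, n = 5) in Control, and 1.19 ± 0.664 (SD, n = 5) in Tb-DOX against 0.0759 ± 0.0785 (SD, n = 5) in DOX. Its mean over all libraries was 0.390 FPKM, under the minimum level.

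Fitted with no minimum level, over 34543 genes with at least 1 read, *Cd3d* had a log2 fold change of 3.53 (SE 0.664) in Tb against Control and 3.86 (SE 0.728) in Tb-DOX against DOX. Over the 21 fits that lack 1 library, the former ran from 3.17 to 4.42 and the latter from 3.53 to 4.25. In Tb-DOX against Tb it was -0.08 (SE 0.504). The members called in this fit were *Cd3e* in DOX against Control, *Cd3d* and *Rag1* in Tb against Control, *Cd3e* and *Cd3d* in Tb-DOX against DOX, *Cd3e* in the interaction and none in Tb-DOX against Tb. Beside these counts, 6.16%, 2.39%, 3.25%, 2.31% and 0.715% of all genes fitted were called. In Tb-DOX against Tb, 2 members, *Lck* and *Rag1*, had an unadjusted p under 0.05 in edgeR and in DESeq2, and limma's voom with quality weights called both. Groups did not overlap for 1 member in DOX against Control (*Cd3e*), beside 12.1% of all genes with a read, for 1 in Tb against Control (*Cd3d*), beside 3.29%, and for 1 in Tb-DOX against DOX (*Cd3d*), beside 6.96%. No member was free of overlap in Tb-DOX against Tb, where 2.37% of genes were.

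Neutrophil genes were high in the same libraries as *Cd3d*. Summed over 6 neutrophil genes the level ran from 2.74 to 48.5 CPM in non-tumor-bearing hearts and from 475 to 3968 CPM in tumor-bearing hearts. The 6 genes were *S100a8*, *S100a9*, *Csf3r*, *Cxcr2*, *Ly6g* and *Mmp9*. Within the 11 tumor-bearing libraries the summed level had a Spearman's rho of 0.85 and a Pearson's r of 0.85 with *Cd3d*, and within the 10 others -0.35 and -0.32, on a scale where *Cd3d* had at most 5 reads. The likeness was not particular to neutrophils. Within the tumor-bearing libraries *Cd3d* had a rho of 0.79 (Pearson 0.85) with 6 general leukocyte genes, 0.78 (0.77) with 10 cycling cell genes and 0.65 (0.58) with the genes of T cell receptor signalling. Receptor genes stayed low in the same hearts, *Trac* at 1 to 6 reads in Tb and 0 to 11 in Tb-DOX. The part of these cells in the *Cd3d* reads was not tested.

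**Figure D5:**
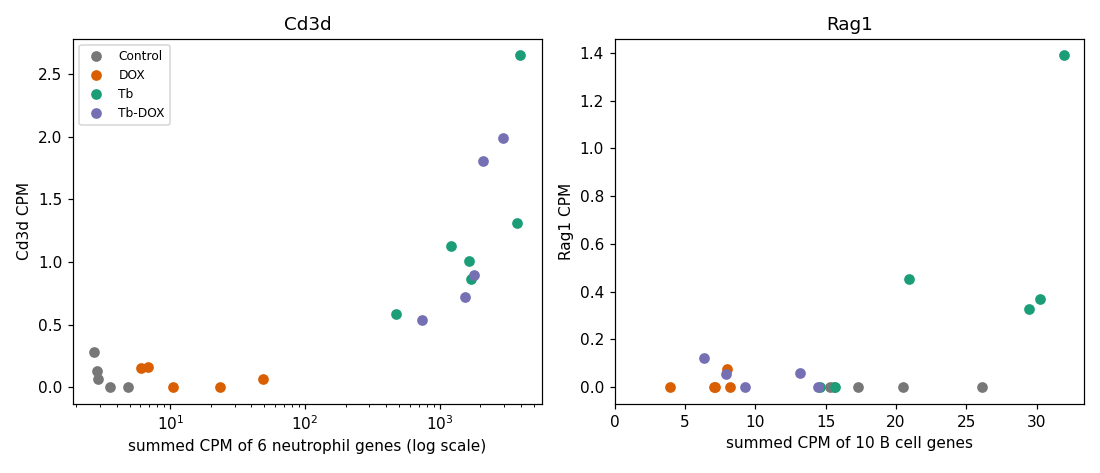
Left, *Cd3d* level (y axis, CPM) against the summed level of 6 neutrophil genes (x axis, CPM, log scale). Right, *Rag1* level (y axis, CPM) against the summed level of 10 B cell genes (x axis, CPM). Each point is 1 library; tumor-bearing libraries lie at 475 CPM or more of neutrophil genes and have at least 9 *Cd3d* reads, and *Rag1* is at 5 or more reads in 4 Tb libraries only.

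*Cd3g*, the CD3 gamma chain, showed none of these patterns. It had 1, 0, 8, 6 and 7 reads in Control and 1, 0, 0, 3 and 1 in DOX. Tb libraries had from 0 to 11 with a median of 6.5, and Tb-DOX replicates had 0, 2, 2, 4 and 5. Every pair of groups overlapped, and the fitted log2 fold change was -1.82 (SE 0.995) in DOX against Control and -1.08 (SE 0.853) in Tb-DOX against Tb, neither called.

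The coreceptors were near the limit of detection. *Cd4* had 5, 9, 5, 1 and 4 reads in Control, 4, 4, 1, 3 and 3 in DOX and 8, 4, 1, 9 and 8 in Tb-DOX, and from 3 to 13 with a median of 8 in Tb. All 4 groups overlapped. *Cd8a*, the alpha chain of CD8, had 1, 0, 0, 0 and 2 reads in Control and 8, 2, 4, 11 and 0 in DOX. Pooled over libraries that was 25 against 3 reads, a ratio of 9.34 with an exact 95% interval of 2.85 to 48.3 for counting error only, while the libraries of both groups overlapped at 0 to 2 reads. The fit between libraries gave *Cd8a* a log2 fold change of 2.99 (SE 1.14), not called. Tb libraries had from 0 to 10 *Cd8a* reads with a median of 3.5, and Tb-DOX replicates had 2, 0, 0, 2 and 7. *Cd8b1*, the beta chain with which CD8 alpha pairs on cytotoxic T cells, had at most 3 reads in any of the 21 libraries and was at 0 in 11. The libraries with 8 and 11 *Cd8a* reads had 0 *Cd8b1* reads.

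*Lck* and *Themis*, which act below the receptor, did not rise with *Cd3e*. *Lck* had 5, 9, 5, 6 and 7 reads in Control and 2, 6, 2, 3 and 2 in DOX. Tb libraries had at least 4, a median of 11.5 and at most 19 reads, and Tb-DOX replicates had 3, 6, 4, 2 and 1. The doxorubicin groups thus lay at the lower end in both arms, with an overlap in each. The fitted log2 fold change was -0.89 (SE 0.629) in DOX against Control and -1.66 (SE 0.592) in Tb-DOX against Tb, neither called in this fit. *Themis* had from 0 to 3 reads in Control and 0 to 1 in DOX, from 0 to 9 in Tb and 2, 3, 4, 0 and 6 in Tb-DOX, with all groups overlapping. Summed without *Cd3e* and *Cd3d*, the other 8 genes had a mean of 1.27 ± 0.294 CPM (SD, n = 5) in Control and 0.984 ± 0.408 (SD, n = 5) in DOX. That sum was 2.40 ± 1.01 (SD, n = 6) in Tb and 1.18 ± 0.387 (SD, n = 5) in Tb-DOX.

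*Rag1* was counted mainly in a few Tb libraries. It was at 0 in all Control libraries and at 0, 1, 0, 0 and 0 in DOX. Tb replicates 1 to 4 had 5, 21, 6 and 9 reads, and replicates 5 and 6 had 0. Tb-DOX replicates had 1, 2, 0, 0 and 1. The Tb mean, 0.423 ± 0.511 CPM (SD, n = 6), was at least 2.13-fold higher than Control, against a limit of 3 counts in each Control library. Without replicate 2, which held 21 of the 41 reads, the mean was 0.230 ± 0.215 (SD, n = 5) and the bound 1.16-fold. *Rag1* overlaps *Iftap* on the same strand, and *Iftap* had from 990 to 1371 reads in Tb and from 920 to 1253 in Tb-DOX, without the *Rag1* pattern. *Dntt* was at 0 in 17 libraries. It had 4 reads in Tb replicate 4, 3 in each of Tb-DOX replicates 2 and 4, and 1 in DOX replicate 3.

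*Pax5* was at its highest in the same Tb libraries as *Rag1*. *Pax5*, the factor that fixes B cell identity, had 12, 24, 20 and 13 in Tb replicates 1 to 4, 7 and 4 in replicates 5 and 6, and from 0 to 8 in the other 15 libraries. Summed over 10 B cell genes the level ran from 14.6 to 31.9 CPM in Tb and from 15.3 to 26.1 in Control, where *Rag1* was at 0. *Blk* held much of that sum, with a mean of 12.1 CPM in Control and 9.46 in Tb. *Ighm* went the other way, at 4.33 CPM in Control and 8.32 in Tb, and so did *Ms4a1*, at 0.158 and 0.615. With no minimum level, the median log2 fold change of the 10 genes in Tb against Control was 0.97, beside 0 over all genes. The part of B cells in the *Rag1* reads was not tested.

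Genes that belong to a thymus were at or near 0. *Rag2*, which cuts DNA together with RAG1, had 1 read in 1 of the 21 libraries. *Ptcra*, the receptor chain of immature thymocytes, had at most 3 reads and was at 0 in 19 libraries. *Foxn1*, the factor that makes thymic epithelium, was at 0 in all 21 and *Psmb11*, a proteasome subunit of the thymic cortex, in 20. *Prss16*, a protease of thymic epithelium, was the exception among these, with 0 to 1 reads in Control and 0 to 4 in DOX against 1 to 41 in Tb and 2 to 54 in Tb-DOX. Its highest count, 54, was in Tb-DOX replicate 4, where *Foxn1* was at 0.

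Most genes of the wider T cell program were too low to be tested. Of 15 genes of T cell receptor signalling, 2 reached the minimum level. *Cd28*, a costimulatory receptor, had 7.28 ± 0.465 CPM (SD, n = 5) in Control and 5.33 ± 1.37 (SD, n = 5) in DOX, and was not called in either doxorubicin comparison. *Lcp2*, an adaptor that myeloid cells use as well, had 1.22 ± 0.122 CPM (SD, n = 5) in Control and 8.73 ± 3.79 (SD, n = 6) in Tb, and it reached the minimum level through the tumor-bearing groups. No result is given for the 14 genes of peripheral and effector T cells.

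Among 12 genes of thymocyte stages 4 were tested, with a median log2 fold change of 0.49 in DOX against Control and -0.08 in Tb-DOX against Tb, beside 0.00 and -0.02 over all genes tested. None of the 9 natural killer cell genes reached the minimum level, and neither did any of the 5 adipocyte genes. Of 10 thymic epithelium genes *Ccl25*, a chemokine, alone did, with 43 to 77 reads in Control and 24 to 67 in DOX.

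Some genes of B cells, lymph node stroma and macrophages were called lower in DOX against Control. Over all 13990 genes tested, 810 were called lower there, and 9.95% were called in either direction. Of 10 B cell genes 2 reached the minimum level and both were called lower, whereas the median over all 10 in the fit with no minimum was -0.38, and *Pax5* had a mean of 0.0649 CPM in Control and 0.218 in DOX. Of 7 stromal genes 2 reached it and 1 was called lower. *Ighm*, the heavy chain of immunoglobulin M, was called lower in DOX against Control (-1.55, SE 0.319, adjusted p = 0.000822) and in Tb-DOX against Tb (-1.75, SE 0.291, adjusted p = 0.00201). *Blk*, a B cell kinase, was called lower in DOX against Control (-1.87, SE 0.474, adjusted p = 0.00424), and had -0.66 (SE 0.435) in Tb-DOX against Tb, not called. *Ccl21a*, the chemokine by which lymph node stroma draws T cells, was called lower in both (-2.35, SE 0.224, adjusted p = 6.05e-07 and -1.21, SE 0.204, adjusted p = 0.00221). *Ptprc*, which encodes the leukocyte antigen CD45, reached the minimum level through the tumor-bearing groups and had 11.8 ± 1.97 CPM (SD, n = 5) in Control and 4.99 ± 0.980 (SD, n = 5) in DOX. *Cd53*, of the same list of 6 general leukocyte genes, did not fall, with 4.47 ± 1.35 CPM (SD, n = 5) in Control and 4.73 ± 1.42 (SD, n = 5) in DOX. The median log2 fold change of these 6 was -0.59 in DOX against Control, beside 0.00 over all genes tested.

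Of 7 macrophage genes, *Adgre1* (-1.98, SE 0.254, adjusted p = 1.3e-05) and *Csf1r* (-1.20, SE 0.158, adjusted p = 1.62e-05) were called lower in DOX against Control, with a list median of -0.83 beside 0.00 over all genes tested. In Tb-DOX against Tb *Adgre1* had -0.95 (SE 0.226, adjusted p = 0.0202) and *Csf1r* -0.55 (SE 0.147, adjusted p = 0.0349), and both missed the call through the minimum fold change alone. The summed level of the 6 neutrophil genes ran from 2.74 to 4.88 CPM in Control and from 6.11 to 48.5 in DOX. Of 10 cycling cell genes 2 were tested. One of them, *Mki67*, reached the minimum level through the tumor-bearing groups and had 3.83 ± 0.905 CPM (SD, n = 5) in Control and 0.943 ± 0.565 (SD, n = 5) in DOX. The 8 cardiomyocyte genes had a median of 0.31 in DOX against Control and 0.21 in Tb-DOX against Tb, and their summed level ran from 48014 to 87526 CPM. Adjusted p-values here come from edgeR's quasi-likelihood test with Benjamini-Hochberg adjustment over 13990 genes. Nothing in the sources used here gives pooling of mice, so each library is read as 1 heart, and the p-values measure the spread between these libraries.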

How the data were processed

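Hearts of 21 mice in 4 groups (Control, DOX, Tb, Tb-DOX) were sequenced as paired-end RNA-seq. Per the labels, reads were trimmed with cutadapt, checked with FastQC, aligned with HISAT2 to GRCm39 and counted per gene with HTSeq 0.6.1; DESeq2 1.34.0 is named too. The authors deposited raw read counts per gene, FPKM values and exonic lengths in 1 table. The deposited FPKM equalled the count divided by exonic length and by the library total in 100% of values (within 0.01), so both units hold the same reads. No column of per-sample values was left unused.

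Counts were fitted with edgeR 4.0.16 (R 4.3.3; TMM, quasi-likelihood F test, 4 groups in 1 fit) on genes averaging 0.5 FPKM or more over the 21 libraries, and again with no minimum. Calls needed a Benjamini-Hochberg adjusted p under 0.05 and a log2 fold change of at least 1 in size. The fit was tested on simulated data. Limma 3.58.1 and DESeq2 1.42.0 were alternatives, with other scalings, filters, pseudocounts (0.1 and 1) and each library left out. Replicate libraries differed beyond sampling noise (chi-square per degree of freedom 5.33 or more over 45 pairs).

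The 10 genes and 13 further lists were chosen with earlier results of these data known. Named genes were the 10 members, of each list the gene with the highest mean FPKM and up to 3 called genes with the largest change in each doxorubicin comparison, and the 15 genes most like the members' mean profile. Further genes named for their part in the receptor, the thymus, B cells or the *Cd3e* locus, or for a high value in a single library, were chosen after their values were seen. Promoter letters came from a RefSeq table of GRCm38.p6, and no coordinate was carried between builds. Numbers shared by libraries across groups did not pair them: deviations from group means correlated between -0.234 and 0.21 over 30 pairs, and 3 were over 0.1. Some genes of these lists are not reported here.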

Additional observations from a re-analysis of the deposited data

Results flagged for a closer look

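In 12 combinations of gene and group with a library of at least 10 reads, the gap between an extreme library and its neighbour was divided by the group's range, and 5 were over Dixon's limit. Chance alone passes it in about 1 of 20 groups, but these genes were selected with single high libraries in view, so the gaps are a description and are not set against chance. *Cd3e* passed in 3 groups, with a gap of 0.968 for DOX replicate 4, 0.979 for Tb replicate 5 and 0.803 for Tb-DOX replicate 2. *Cd3d* passed in Tb for replicate 5, at 0.65, and *Rag1* in Tb for replicate 2, at 0.674.

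The effect of doxorubicin on *Cd3e* differed between tumor-bearing and non-tumor-bearing mice in edgeR's interaction term, by -7.60 on the log2 scale. This is the pattern *Cd3e* was selected from, and it was called in neither fit that left out DOX replicate 4 or Tb replicate 5 alone. It was also not called under the replicate block, in limma's voom or with log2 FPKM at either pseudocount. These fits used genes over the minimum level. With no minimum, it was called under the block and in both fits that left out a library, and not in voom or with log2 FPKM. With DOX replicate 4, Tb replicate 5 and Tb-DOX replicate 2 all left out, a choice made after their values were seen, it was -2.56.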

How the results depend on the processing

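Counts of the 10 genes called changed as follows. With the minimum level, *Cd3e* was the member fitted in the interaction and in Tb-DOX against DOX: the count of 1 became 0 in both under the replicate block, at an adjusted p under 0.01, and in limma with voom or with log2 FPKM plus 1 or plus 0.1. Leave-one-out counts ran from 0 to 1 in both and in Tb against Control. Tb against Control went from 0 to 1 with filterByExpr and to 2 with no filter, and Tb-DOX against DOX to 2 with either. DESeq2 gave *Cd3e* no adjusted p, so it has no count there.

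With no minimum level, DOX against Control went from 1 to 2 under the replicate block and with only the 2 groups compared (*Cd8a* joined), to 0 in DESeq2 and with log2 FPKM plus 1, and from 1 to 2 over leave-one-out fits. Tb-DOX against Tb went from 0 to 2 in voom and 1 without the 3 highest libraries together, an alternative added after the data were seen. The interaction went to 0 with robust moderation, in DESeq2 and with log2 FPKM at either pseudocount, and in voom its count of 1 was *Rag1* and not *Cd3e*. Tb against Control went from 2 to 1 at p under 0.01, with only the 2 groups compared or with log2 FPKM plus 0.1, and to 0 with plus 1. Tb-DOX against DOX went from 2 to 1 with robust moderation, DESeq2, voom or log2 FPKM plus 0.1, to 0 with plus 1, and ran from 1 to 2 over leave-one-out fits. The cause was not tested. The numbers do not pair the libraries, and the block left a *Cd3e* log2 fold change of 5.46 in DOX against Control. The summed level of the 10 genes moved by less than the group SD in all of its alternatives, although its DOX mean of 70.1 CPM was 9.87 without replicate 4 and its Tb mean of 11.8 CPM was 4.73 without replicate 5. With log2 FPKM plus 1, *Ighm*, *Adgre1* and *Csf1r* lost their calls in DOX against Control. Of the other values, 335 counts and sums and 5965 single-gene or list values stayed within their limits, and 282 of the latter moved, with no called one reversed. Depth limits 9 of the 10 genes, which had at most 44 reads in any library.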

Other observations

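Genes whose level went most like the members' mean profile over the 21 libraries (each member scaled, Spearman's rho) were *Coro7* (0.85; Pearson 0.67), an actin regulator, *Gmip* (0.84; 0.70) and *Ugcg* (0.84; 0.68), a glucosylceramide synthase, followed by *Marchf1*, *Btg1*, *Sycp2*, *Sema4a*, *Trmt61a*, *Gpr65*, *Il1r1*, *Trf*, *Tpm3-rs7*, *Emilin2*, *Treml2* and *Rab8b*, the last at 0.80. Without Tb replicate 4, the library with the highest mean profile, the 3 leading values were 0.85, 0.85 and 0.83. The chains of the T cell receptor lay under the minimum level and were not ranked.

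For *Cd3e* alone the closest profile was that of *Ddx24*, an RNA helicase (0.95 over 21 libraries; 0.95 without DOX replicate 4), and *Cdkn1a*, the cell cycle inhibitor p21, was among the 4 closest (0.92; 0.91). *Cdkn1a* had 188 to 762 reads in Control and 1508 to 2519 in DOX. In Tb it had 275 to 483 reads in replicates 1 to 4, 4632 in replicate 5, where *Cd3e* had 706, and 1138 in replicate 6. These libraries share their groups, so the likeness holds group differences as well. For *Cd3d* the closest were *Myd88*, an adaptor of innate receptors (0.95), and *Stfa1*, a stefin of myeloid cells (0.93). These 2 lists were added after the data were seen.

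DOX replicate 4 stood apart in further genes. In 15 tested genes, *Cd3e* among them, it was at least 10 times above every other DOX library, compared with 1 to 3 genes in the other DOX libraries. *Iigp1*, *Igtp* and *Irgm2*, GTPases induced by interferon, were among them. *Iigp1* had 9498 reads there and 306 to 621 in the other DOX libraries. *Igtp* had 2979 against 66 to 123, and *Irgm2* had 3219 against 147 to 232. *Ifng*, the gene of interferon gamma, had at most 2 reads in DOX. Tb replicate 5 stood apart in 33 tested genes in the same way, among them *Fosb* (1721 reads, at most 41 in the other Tb libraries) and *Il6* (1645, at most 16), while its *Iigp1* count of 278 was the lowest of the Tb group.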
